A study of Mus musculus with 8 samples.

Results

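The ligands and receptors of the tumour necrosis factor (TNF) superfamily were followed here in sorted fat progenitors, as the probes whose platform gene symbol begins with Tnfsf or Tnfrsf and a digit. This rule found 55 probes of 30 genes, 10 ligands and 20 receptors, among 45281 probes and 19057 named genes on the array. The cells came from epididymal white adipose tissue of lean C3H mice aged 3 months (C3H/HeOuJ in the title of the series). All sample titles name a chow diet, and the labels name no genetic change or other treatment. After collagenase digestion, cells lacking CD45 (leukocytes) and CD31 (endothelium) and carrying the stromal proteins Gp38 and PDGFRα were sorted by surface CD9, a tetraspanin membrane protein, into CD9high and CD9low progenitors. Each fraction was measured on 4 Illumina arrays, where slide 1 carried replicates 1 to 3 and slide 2 carried replicate 4 of either fraction. The gate text in the labels gives CD9high for both fractions and a further label calls all samples high in CD9, so that the titles and cell type labels were followed. The labels do not say whether replicates were separate animals or pools, so that the spread behind each p-value is that between these 8 arrays and may be technical.

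TNF superfamily ligands are mostly trimeric membrane proteins that can be shed, and their receptors either carry a death domain or recruit TRAF adaptors and through them turn on NF-κB. A few receptors, osteoprotegerin among them, lack signalling parts and act as decoys that bind the ligand away. In fat tissue TNF itself is best known for blocking adipocyte differentiation and insulin action, and most of its mRNA is made by immune cells.

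Values below are normalized log2 intensities, a difference is CD9high minus CD9low on that log2 scale, given with its standard error (SE), and adjusted p-values come from limma with Benjamini-Hochberg adjustment over all 10724 genes tested. A probe was above background on an array at a detection p under 0.05, and a gene was tested if a probe was above background on at least 4 of the 8 arrays. Levels of different probes cannot be set against each other, so that no order of the genes by level is given.

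As the check of the labels, Cd9 stood at 8.44 ± 0.14 (SD, n = 4) in CD9high and 4.80 ± 0.52 in CD9low, with no overlap. Between 41.1% and 51.1% of probes were above background on each array. CD9low replicate 2 had the fewest and stood apart, with a highest correlation of 0.872 to any other array over the genes tested, where the other 7 arrays reached 0.924 to 0.975. Of 8 stromal progenitor markers tested 0 passed the test. Although CD45 positive cells were gated out, 6 of 8 leukocyte markers and 6 of 6 macrophage markers with a probe passed the detection filter. So did 6 of 8 endothelial markers, although CD31 positive cells were gated out, and 6 of 6 pericyte and smooth muscle markers. The summed linear intensity of those leukocyte markers ran from 444 to 2520 in CD9high and from 345 to 3610 in CD9low, and that of the macrophage markers from 262 to 1650 and from 229 to 1836. That of the endothelial markers ran from 1230 to 1765 in CD9high and from 1106 to 3621 in CD9low, with CD9low replicate 2 highest, and that of the pericyte markers from 790 to 1887 and from 1277 to 2715. In both fractions the array of replicate 4 had the lowest levels of the leukocyte genes Laptm5 and Tyrobp, and 0 of these markers passed the test between the fractions. The B lymphocyte markers with a probe, Cd79b and Ms4a1, did not pass the detection filter. Of 5 T and NK lymphocyte markers with a probe, 2 passed the filter and 0 passed the test between the fractions. In such bulk samples, fewer cells of a type and less RNA per cell cannot be told apart.

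Among the genes followed by their Tnfsf or Tnfrsf symbol, only that of osteoprotegerin passed the test between the fractions. Of the 30 genes, 10 were detected, and 1 of these, Tnfrsf11b, passed the test, higher in CD9high; 0 passed as lower. Over all genes tested 1.69% were called in either direction, 1.13% as higher and 0.559% as lower. Tnfrsf11b met the detection filter through its 4 CD9high arrays alone, and in a fit without the filter its adjusted p was 0.00698. The fractions did not overlap for 2 of the 10 genes, Tnfrsf11b and Tnfsf13b, where 7.69% of all genes tested did not overlap. Over all genes tested 3.92% did not overlap with CD9high above, as Tnfrsf11b, and 3.78% with CD9high below, as Tnfsf13b. The same 2 genes had an unadjusted p under 0.05, against 10.7% of all genes. The median difference of the 10 genes was 0.03, beside -0.04 over all genes, and the median size of the difference was 0.39, beside 0.26. These counts describe the 10 genes and do not set the family apart from other genes.

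**Figure D1:**
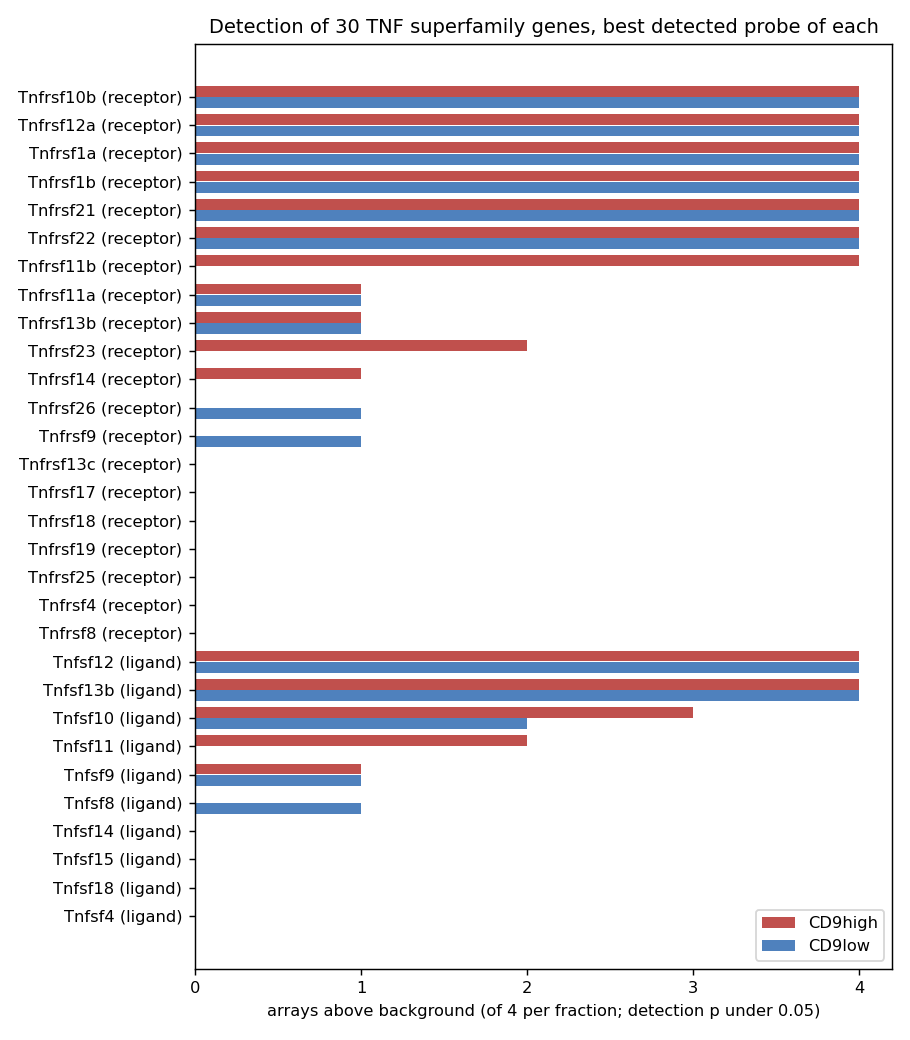
Number of arrays, of 4 per fraction, on which each of the 30 genes was above background (horizontal axis), for the best detected probe of each gene, in CD9high (red) and CD9low (blue). Tnfrsf11b has 4 CD9high and 0 CD9low arrays, 8 genes reach 4 of 4 in both fractions, and 11 genes have no bar.

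The family was sparsely detected in these cells. The 10 detected genes were 3 of 10 ligands and 7 of 20 receptors, 33.3% of the family beside 56.3% of all named genes. The ligands were Tnfsf10, Tnfsf12 and Tnfsf13b. The receptors were Tnfrsf1a, Tnfrsf1b, Tnfrsf10b, Tnfrsf11b, Tnfrsf12a, Tnfrsf21 and Tnfrsf22. For 11 genes no probe was above background on any array. These were the ligand genes Tnfsf4, Tnfsf14, Tnfsf15 and Tnfsf18 and the receptor genes Tnfrsf4, Tnfrsf8, Tnfrsf13c, Tnfrsf17, Tnfrsf18, Tnfrsf19 and Tnfrsf25. Several of these are known from lymphocytes, such as Tnfrsf4 (OX40), Tnfrsf18 (GITR) and Tnfrsf17 (BCMA, of plasma cells). The remaining 9 genes were above background on 1 or 2 arrays. An absent signal on 4 arrays per fraction says that the probe was not above background, not that the transcript was absent.

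Tnfrsf11b encodes osteoprotegerin, a secreted decoy receptor that binds the ligand RANKL and is best known for protecting bone from osteoclasts. Its deposited signals were 67.8, 44.8, 87.8 and 56.3 in CD9high replicates 1 to 4, and 1.64, -8.40, 6.50 and 1.93 in CD9low replicates 1 to 4. After normalization the levels were 6.65, 5.97, 6.47 and 5.94 in CD9high and 4.39, 4.20, 4.54 and 4.40 in CD9low. Every CD9high array was above background and above every CD9low array, and 0 of 4 CD9low arrays were above background.

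The fitted difference for Tnfrsf11b was 1.88 (SE 0.24, 95% interval 1.35 to 2.40, adjusted p = 0.00352), the 28th smallest p among the genes tested. Because the dim fraction has only a bound, the fold between the means is given as 2.79-fold or more, higher in CD9high. This bound allows for the unknown CD9low signal below background, not for the spread between arrays. The lower end of the 95% interval is a smaller fold. For this bound the CD9low mean was replaced by a ceiling, which per array is the dimmest signal still above background, or the probe's own value if that is brighter. The difference was 1.99 on slide 1 and 1.54 on slide 2, and with the slide as a block the adjusted p was 0.00702. The gene passed the test in all 19 alternative analyses, with an adjusted p from 0.00171 to 0.0336. The size of the difference depended on the offset added before taking logs. It fell to 1.02 with an offset of 50, also a smaller fold than the bound of 2.79-fold. It rests on 1 probe. Without CD9low replicate 2 the difference was 1.82. Of the leukocyte and the macrophage markers, 0 of 6 and 0 of 6 tested passed. Of 3 tested mesothelial markers 0 passed and 3 had a difference above 0. Of 3 tested adipocyte markers 0 passed and 1 had a difference above 0. The part of other cells in the difference of Tnfrsf11b was not tested.

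**Figure D2:**
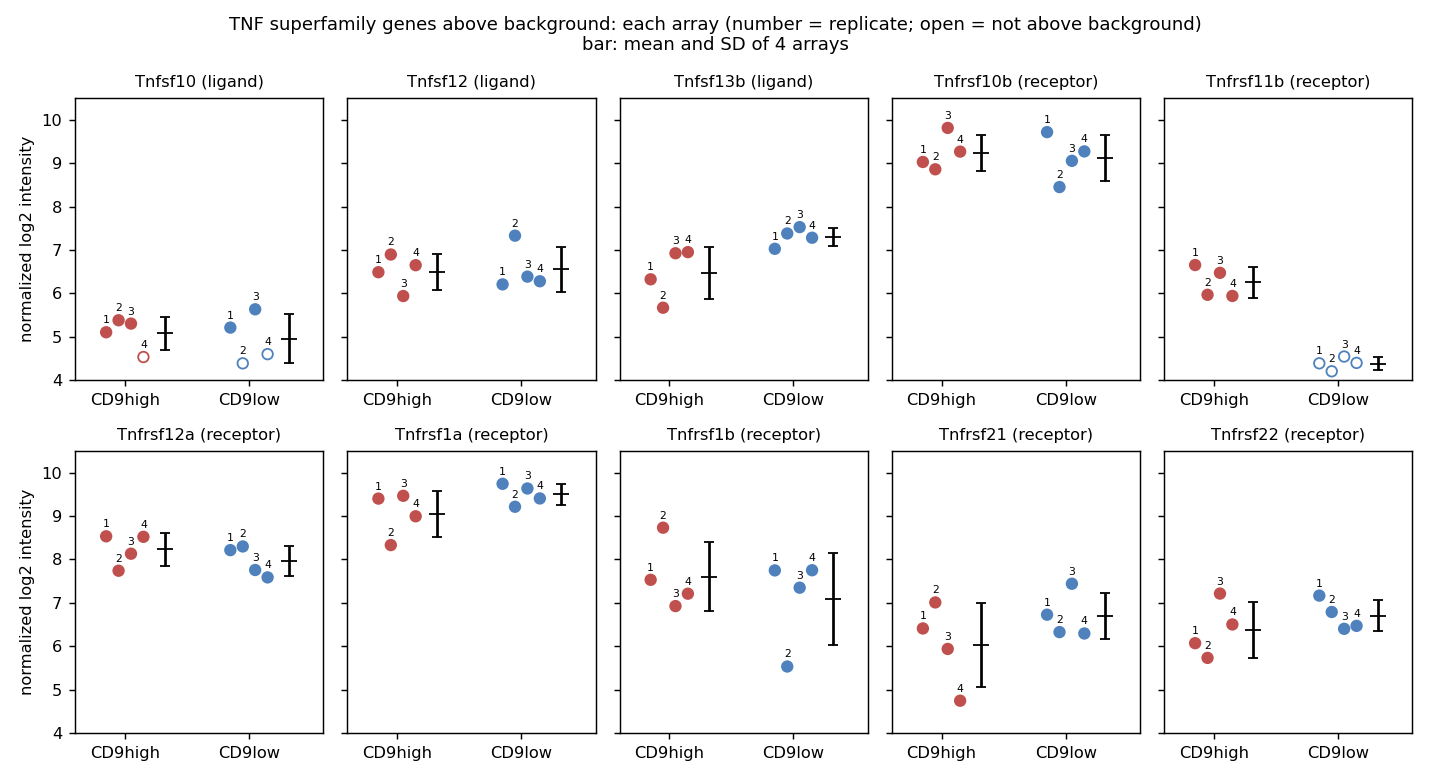
Normalized log2 intensity (vertical axis) of the 10 detected genes on each of 8 arrays, with the replicate number beside each point, open points for arrays not above background, and the mean and SD of 4 arrays beside them. Tnfrsf11b lies between 5.94 and 6.65 in CD9high and between 4.20 and 4.54 in CD9low, and the fractions of 8 of the other 9 genes overlap.

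The genes of RANKL and of its receptor RANK were not detected by the filter. Tnfsf11 encodes RANKL, the ligand of RANK and of osteoprotegerin. Its deposited signals were 10.9, 5.08, 8.88 and 13.6 in CD9high and -3.57, 2.52, 2.96 and 11.3 in CD9low. CD9high replicates 1 and 4 were above background, 0 of 4 CD9low arrays were, and the gene was not tested. Without the filter on dim probes its difference was 0.22 (SE 0.12, adjusted p = 0.746). Tnfrsf11a, the gene of the receptor RANK, was above background on 1 array of each fraction, CD9high replicate 3 (signal 17.7) and CD9low replicate 3 (11.2).

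Of the ligands, Tnfsf13b had the widest difference. It encodes BAFF, a survival factor for B cells made mostly by myeloid and stromal cells. Its levels were 6.32, 5.67, 6.92 and 6.95 in CD9high and 7.03, 7.38, 7.53 and 7.28 in CD9low. The fractions did not overlap, although CD9high replicate 4 and CD9low replicate 1 lay close together. The difference was -0.84 (SE 0.31, 95% interval -1.51 to -0.16) and did not pass the test (adjusted p = 0.328). It was -1.01 on slide 1 and -0.33 on slide 2, and without CD9high replicate 2, the lowest array, it was -0.57. A further probe, with levels of 4.89 to 6.91 in CD9high and 7.06 to 7.22 in CD9low, also did not overlap, with a difference of -0.94 (SE 0.40). Its lowest array was again CD9high replicate 2, here not above background. On this probe the difference was -1.16 on slide 1 and -0.31 on slide 2. The third tested probe overlapped (-0.31, SE 0.27). Tnfsf13b did not pass the test in any of the 19 alternatives (adjusted p from 0.246 to 0.600). Of the tested markers of other cells, 0 of 6 leukocyte, 3 of 6 macrophage, 1 of 6 endothelial and 0 of 6 pericyte markers had a difference above 0. The medians were -0.14 for leukocyte, -9.3e-05 for macrophage, -0.28 for endothelial and -0.31 for pericyte markers. The part of such cells in the difference of Tnfsf13b was not tested. The receptors of BAFF were not detected in either fraction by the filter: Tnfrsf13c and Tnfrsf17 were above background on 0 arrays and Tnfrsf13b on 1 of each fraction.

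Tnfrsf13b encodes TACI, a BAFF receptor of B cells. On 1 of its 2 probes the levels were 4.41, 5.84, 4.62 and 4.27 in CD9high and 4.44, 6.51, 4.33 and 4.24 in CD9low. Only the array of replicate 2 was above background in each fraction, with deposited signals of 39.4 and 47.0. The other probe was above background on no array.

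Tnfsf10 encodes TRAIL, a ligand that can start apoptosis through death receptors and that osteoprotegerin also binds. Its levels were 5.10, 5.38, 5.30 and 4.53 in CD9high and 5.21, 4.39, 5.63 and 4.60 in CD9low, with 3 and 2 arrays above background. The ranges overlap almost wholly, and the difference was 0.12 (SE 0.32, 95% interval -0.58 to 0.83, adjusted p = 0.921). Its second probe was above background on 1 array.

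Tnfsf12 encodes TWEAK, the ligand of the receptor Fn14. Its levels were 6.49, 6.90, 5.94 and 6.65 in CD9high and 6.21, 7.33, 6.39 and 6.28 in CD9low, all above background. CD9low replicate 2 was high, and the other 7 arrays lay between 5.94 and 6.90. The difference was -0.06 (SE 0.31, 95% interval -0.75 to 0.63, adjusted p = 0.967), and 0.20 without CD9low replicate 2. The gene overlaps a read-through gene, Tnfsfm13, that joins it to its neighbour Tnfsf13, so that the probe may read both.

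The receptor of TWEAK, Fn14, is encoded by Tnfrsf12a and is known as an injury-induced receptor of stromal cells. Its levels were 8.53, 7.74, 8.13 and 8.52 in CD9high and 8.21, 8.30, 7.76 and 7.59 in CD9low. The fractions overlapped, with a difference of 0.27 (SE 0.27, 95% interval -0.33 to 0.86, adjusted p = 0.773). It was 0.04 on slide 1 and 0.94 on slide 2, and ran from 0.14 to 0.43 without single arrays. Ligand and receptor of this pair were thus both above background on all 8 arrays.

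The receptors of TNF itself were detected in both fractions. Tnfrsf1a, the death domain receptor found on most cells, had levels of 9.40, 8.33, 9.47 and 8.995 in CD9high and 9.74, 9.21, 9.64 and 9.41 in CD9low. CD9high replicate 2 was the lowest array and the fractions overlapped. The difference was -0.45 (SE 0.29, 95% interval -1.08 to 0.18, adjusted p = 0.638), and it was -0.21 without CD9high replicate 2. All 3 of its probes were above background on all arrays and gave -0.45, -0.35 and -0.37.

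Tnfrsf1b, the TNF receptor without a death domain that is best known from immune and endothelial cells, had levels of 7.53, 8.73, 6.92 and 7.21 in CD9high and 7.75, 5.53, 7.35 and 7.75 in CD9low. The arrays of replicate 2 were the highest of CD9high and the lowest of CD9low. The difference was 0.50 (SE 0.53, 95% interval -0.67 to 1.68, adjusted p = 0.781), and it was -0.02 without CD9low replicate 2. On the same arrays the leukocyte genes Laptm5, Tyrobp and Cd52 were the highest of each fraction. Laptm5 stood at 10.7 in CD9high and 11.1 in CD9low. In 1 fraction each, the other tested leukocyte markers were highest on another array. These were Ptprc in CD9low replicate 3 (6.00), Cd53 in CD9high replicate 1 (5.78) and Coro1a in CD9high replicate 3 (6.74). The part of leukocytes in the difference of Tnfrsf1b was not tested. The other tested probes of Tnfrsf1b gave 0.10 (SE 0.28) and -0.19 (SE 0.27).

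**Figure D3:**
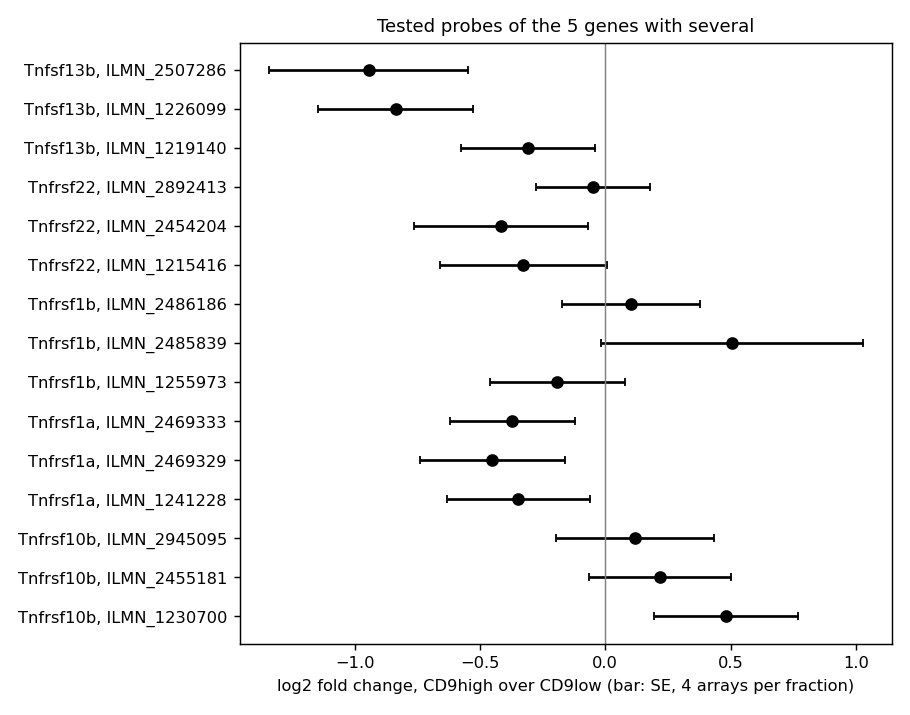
Log2 fold change of CD9high over CD9low (horizontal axis, bar: SE, 4 arrays per fraction) for each tested probe of the 5 genes with several. The 3 probes of Tnfsf13b, Tnfrsf1a and Tnfrsf22 lie below 0, those of Tnfrsf10b above 0, and those of Tnfrsf1b on both sides; 0 of these 15 probes passed the test.

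Osteoprotegerin can also bind TRAIL. The other detected receptors of TRAIL, Tnfrsf10b and Tnfrsf22, did not pass the test and overlapped between the fractions. Tnfrsf10b, the mouse death receptor of TRAIL, had levels of 9.03, 8.86, 9.81 and 9.27 in CD9high and 9.72, 8.45, 9.06 and 9.27 in CD9low. The difference was 0.12 (SE 0.31, 95% interval -0.58 to 0.82, adjusted p = 0.922). Of its 5 probes 3 were tested, and the 2 others were above background on 3 arrays and 1 array. Tnfrsf22, which in mouse encodes a decoy receptor of TRAIL, had levels of 6.07, 5.73, 7.21 and 6.50 in CD9high and 7.17, 6.79, 6.40 and 6.47 in CD9low. Its difference was -0.33 (SE 0.33, 95% interval -1.06 to 0.41, adjusted p = 0.776), and it ran from -0.11 without CD9high replicate 2 to -0.61 without CD9high replicate 3. The gene lies beside Tnfrsf23 and Tnfrsf26, relatives of similar sequence, and probes were not checked for reading more than 1 of them. Of its 5 probes, 2 were above background on no array.

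Tnfrsf23, a decoy receptor of TRAIL in mouse, was above background on CD9high replicates 1 and 3 and on 0 of 4 CD9low arrays. Its deposited signals were 10.1, 1.30, 13.6 and 11.4 in CD9high and -0.99, 1.82, 2.71 and -0.60 in CD9low. It was not tested with the filter, and without the filter its difference was 0.29 (SE 0.10, adjusted p = 0.460). Tnfrsf26 was above background on 1 CD9low array.

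Tnfrsf21 encodes the death domain receptor DR6, known from neurons and T cells. Its levels were 6.41, 7.01, 5.94 and 4.74 in CD9high and 6.73, 6.32, 7.44 and 6.29 in CD9low. CD9high replicate 4 was the lowest array, and the fractions overlapped. The difference was -0.67 (SE 0.45, 95% interval -1.68 to 0.33, adjusted p = 0.658), with -0.38 on slide 1 and -1.55 on slide 2. It was -0.24 without CD9high replicate 4 and -0.42 without CD9low replicate 3. The remaining genes above background on single arrays were Tnfsf8 and Tnfrsf9 (1 CD9low array each), Tnfrsf14 (1 CD9high array) and Tnfsf9 (1 array of each fraction), all of which are best known from lymphocytes and antigen-presenting cells.

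Among superfamily members with other symbols, 1 receptor gene passed the test, close to the threshold. Of 15 such genes 7 were tested, 1 rose, 0 fell and 6 did not pass, and their median difference was 0.05. Over all genes tested 1.13% were called as higher and 0.559% as lower. Eda2r, a receptor of the A2 form of ectodysplasin and a known target of p53, had levels of 6.39, 6.92, 6.45 and 5.88 in CD9high and 5.25, 4.81, 5.31 and 5.31 in CD9low. The lowest CD9high array exceeded the highest CD9low array. It rose by 1.24 (SE 0.26, adjusted p = 0.0460), with 1.46 on slide 1 and 0.57 on slide 2. The call was close to the threshold and was lost in 16 of 19 alternatives, among them the slide as a block (adjusted p = 0.0635) and the analysis without CD9low replicate 2 (adjusted p = 0.0577); the values reached 0.148. Its ligand gene Eda differed by -0.04 (SE 0.32, adjusted p = 0.980).

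**Figure D4:**
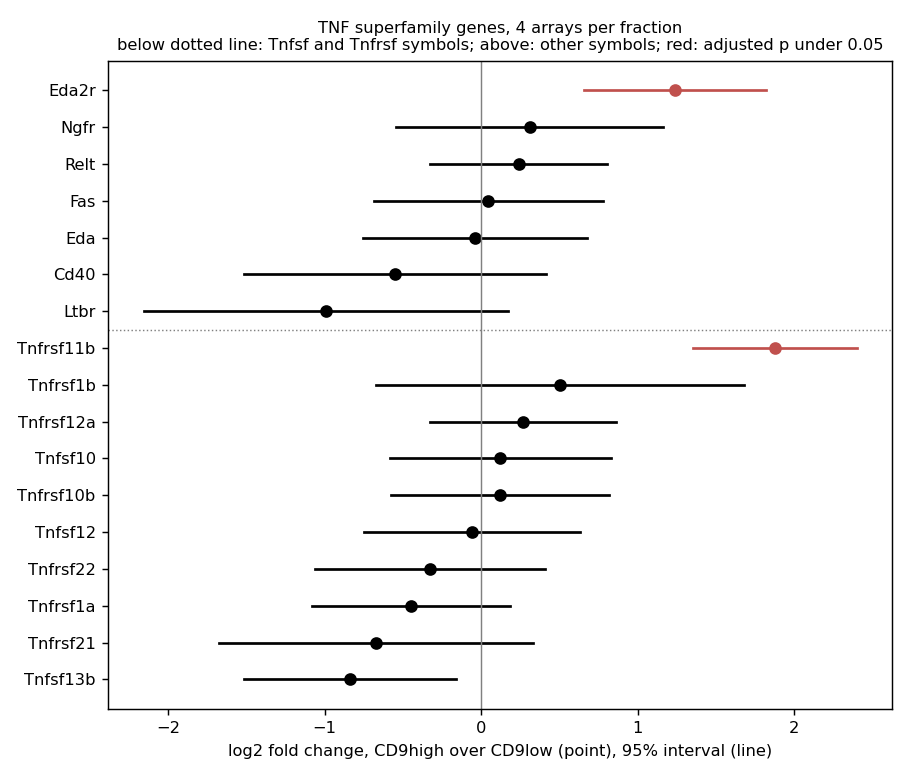
Log2 fold change of CD9high over CD9low (point) with its 95% interval (line) for the 10 detected Tnfsf and Tnfrsf genes (below the dotted line) and the 7 tested superfamily genes with other symbols (above it), with genes past the test in red. Tnfrsf11b (1.88) and Eda2r (1.24) are the 2 in red, and among the other 15 the interval of Tnfsf13b is the one that leaves out 0.

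The other 5 tested genes of this group overlapped between the fractions. Ltbr, the lymphotoxin beta receptor, differed by -0.99 (SE 0.53, adjusted p = 0.553), and by -0.46 without CD9low replicate 2, which at 8.88 was the highest array. Cd40 differed by -0.55 (SE 0.44, adjusted p = 0.710) at a probe above background on 5 arrays. A further Cd40 probe, above background on 7 arrays, differed by -0.16. The death receptor gene Fas differed by 0.05 (SE 0.33), Ngfr, the neurotrophin receptor gene, by 0.31 (SE 0.38) and Relt by 0.24 (SE 0.26). The genes of TNF, both lymphotoxins, CD40 ligand, Fas ligand, CD70, CD27 and the receptor Edar were not detected by the filter. Tnf was above background on 1 array with each of its 2 probes, and Ltb, Cd40lg, Fasl, Cd70 and Edar on none.

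The regions before the start sites of Tnfsf13b and Eda2r are shown because, with Tnfrsf11b, these are the superfamily genes whose fractions did not overlap at the probe tested for the gene; no entry was at hand for Tnfrsf11b, and 23 of the 30 genes matched one. The sequences are the 250 bases before the RefSeq start, on build GRCm38.p6, 5′ to 3′ on the gene's strand. That of Tnfsf13b is chr8:10006217-10006466, plus strand, the first of 2 starts listed, and that of Eda2r is chrX:97377210-97377459, minus strand. The annotated Tnfsf13b gene begins at 10006229, before both listed starts, so that nearly all of its window lies inside the gene. The last bases of the Eda2r window, next to the start used, also lie inside the annotated gene. Capitals mark a match to a searched motif.
Tnfsf13b: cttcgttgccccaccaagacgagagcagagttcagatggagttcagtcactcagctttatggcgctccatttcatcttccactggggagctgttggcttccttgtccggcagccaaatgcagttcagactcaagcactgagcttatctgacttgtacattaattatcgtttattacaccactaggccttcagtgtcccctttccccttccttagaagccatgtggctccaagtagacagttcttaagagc
Eda2r: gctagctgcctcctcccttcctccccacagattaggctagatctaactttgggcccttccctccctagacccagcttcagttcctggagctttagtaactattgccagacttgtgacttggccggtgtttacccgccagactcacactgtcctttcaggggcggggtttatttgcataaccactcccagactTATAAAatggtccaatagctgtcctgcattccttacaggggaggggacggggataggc
Searched on both strands were the TATA box TATAAA, the AP-1 motif TGANTCA and the NF-κB consensus motif, which could overlap each other. TATAAA was found in the Eda2r window, beginning at position -58 before the start, and 12.4% of all 32851 windows of this length hold it. No other match was found in either window; the AP-1 motif is in 6.75% and the NF-κB motif in 3.90% of all windows.

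Downstream of the receptors no gene of the lists passed the test. Of 25 tested adaptors, death domain kinases and ubiquitin regulators, 0 passed the test and 2 had an unadjusted p under 0.05. Over all genes tested 1.69% passed and 10.7% had an unadjusted p under 0.05. The median difference of the 25 was -0.15, with 10 above 0. Map3k5, the stress kinase ASK1, had the smallest p, at -1.04 (SE 0.25, adjusted p = 0.0804). Its levels were 5.24, 4.44, 4.74 and 4.67 in CD9high and 5.79, 5.42, 6.12 and 5.93 in CD9low, without overlap, as for 7.69% of all genes tested. It passed the test without CD9low replicate 2 (-1.17, adjusted p = 0.0339) and in no other alternative. The adaptor gene Traf4 differed by -0.87 (SE 0.33, adjusted p = 0.347) and Map3k7, the kinase TAK1, by 0.61 (SE 0.32, adjusted p = 0.546).

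Of 10 tested NF-κB subunits, inhibitors and kinases, 0 passed and 2 had an unadjusted p under 0.05, beside 10.7% of all genes tested. Their median was -0.35, with 3 above 0. The inhibitor gene Nfkbie differed by 1.20 (SE 0.33, adjusted p = 0.131) without overlap, as for 7.69% of all genes tested. The inhibitor-like gene Nfkbiz, which is induced early by inflammatory signals, differed by -1.08 (SE 0.48, adjusted p = 0.459). The subunit gene Rela differed by -0.52 (SE 0.28, adjusted p = 0.555).

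Of 16 tested genes known to be induced by TNF, 0 passed and 3 had an unadjusted p under 0.05. That share was 10.7% over all genes tested. The median of the 16 was 0.23, with 11 above 0. Ptgs2, the inducible cyclooxygenase, had levels of 7.63, 7.63, 7.85 and 8.87 in CD9high and 5.90, 4.57, 5.68 and 7.33 in CD9low. In both fractions replicate 4, on slide 2, was the highest array. The difference was 2.13 (SE 0.52, adjusted p = 0.0827), and with the slide as a block it passed (adjusted p = 0.0168). It was 2.32 on slide 1 and 1.54 on slide 2, and on slide 1 alone it also passed (adjusted p = 0.0463). The same held when CD9low replicate 4 was left out (adjusted p = 0.0241) and with a replicate block (adjusted p = 0.0400). The adhesion molecule gene Icam1 differed by 0.69 (SE 0.24, adjusted p = 0.287) and the acute phase gene Saa3 by 1.30 (SE 0.48, adjusted p = 0.341). For Ptgs2 and Icam1, higher in CD9high, and Ccl5, lower, the fractions did not overlap, as for 7.69% of all genes tested.

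Of 5 genes that shed ligands and receptors or control shedding, 0 passed and 0 had an unadjusted p under 0.05. That share was 10.7% over all genes tested. The median of the 5 was -0.06. Rhbdf1, a cofactor of the sheddase ADAM17, differed by -0.74 (SE 0.35, adjusted p = 0.495), the sheddase gene Adam10 by 1.59 (SE 0.85, adjusted p = 0.558) and Timp3, an inhibitor of ADAM17, by -0.21 (SE 0.21, adjusted p = 0.767). Without CD9low replicate 2, which at 4.43 was far below the other arrays, Adam10 differed by 0.50.

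**Figure D5:**
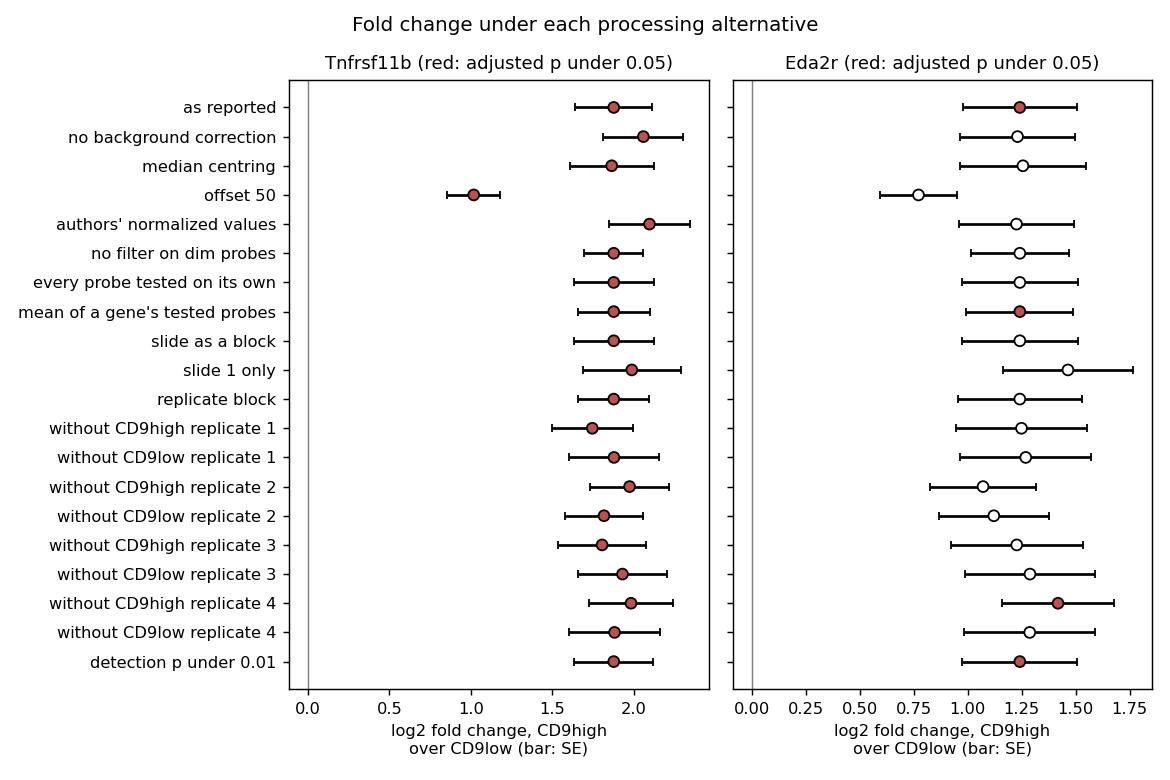
Log2 fold change of CD9high over CD9low (horizontal axis, bar: SE) of Tnfrsf11b (left) and Eda2r (right) as reported and in 19 alternatives, filled red where the adjusted p was under 0.05. Tnfrsf11b is filled throughout, from 1.02 to 2.10, and Eda2r is filled in 3 of the 19.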

How the data were processed

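Expression was measured on Illumina mouse bead arrays. One table deposited by the authors holds signal intensity, not normalized between arrays but with a background already subtracted (values below 0 occur), and, per the file headers, a detection p-value for each probe and array. A second deposited table of intensity values keeps the order of the signals (Spearman correlation 1) with nearly equal distributions, and served as an alternative. The submitters' processing notes name GenomeStudio without a version. Per the labels' protocols, RNA was amplified (Ovation Pico WTA System V2). Signals were processed with neqc of limma 3.58.1 in R 4.3.3 (normexp with negative controls inferred from detection p, offset 16, quantile normalization, log2), and the offset compresses differences of dim genes. Of 45281 probes 34885 carry 1 gene symbol, 18 several and 10378 none; 0 symbols needed an update through RefSeq. A gene was its tested probe with the highest mean. Fractions were compared by lmFit and eBayes without a block at an adjusted p of 0.05, and the script was tested on simulated data. No build is named for the probes, which were not checked for near-identical copies. No 2 arrays held identical values. Precision is limited by the small number of arrays. The members and lists were chosen with earlier results of these data known. Named genes are Cd9, every member, and in each pathway list those past the test and the 3 with the smallest p. Further genes of the list of other superfamily members were added after their values were seen. So were Ccl5 and the named leukocyte markers. Alternatives varied background, normalization, offset, value table, filter, probe choice, slide, replicate block and single arrays; detection p under 0.01 was added after seeing the data.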

Additional observations from a re-analysis of the deposited data

Results flagged for a closer look

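In each fraction's 4 arrays, a value was set apart when its gap to the nearest array exceeded the Dixon limit, which chance alone passes in about 1 of 20 groups. Of 76 groups examined 5 passed, all through CD9low replicate 2, the array with the fewest probes above background (41.1%). Tnfrsf13b stood at 6.51 there, against 4.24 to 4.44 on the other CD9low arrays. Tnfsf12 stood at 7.33, against 6.21 to 6.39. Ltbr stood at 8.88, against 6.59 to 6.88. Adam10 stood at 4.43, against 8.35 to 9.04. Eda2r stood at 4.81, against 5.25 to 5.31, and without this array it differed by 1.12 (limma adjusted p = 0.0577).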

How the results depend on the processing

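Tnfrsf11b, and the count of 1 superfamily gene called, stayed past the threshold in all 19 alternatives, and Tnfrsf11b ran from 1.74 to 1.98 without single arrays. The count over all genes, 181 as reported, was 49 on slide 1 alone, 76 with the replicate number as a block and 56 to 231 without single arrays, lowest without CD9high replicate 1 and highest without CD9low replicate 2. Eda2r lost its call in 16 of 19. Small differences changed sign without single arrays: Tnfrsf10b ran from -0.11 to 0.32, Tnfrsf1b from -0.016 to 0.73, Tnfsf10 from -0.068 to 0.35 and Tnfsf12 from -0.19 to 0.20; Tnfsf12 was also 0.017 with median centring. The cause was not tested. The replicate numbers are shared by the fractions, and the labels do not say whether they mark pairs. Deviations of same-numbered arrays correlated by 0.22, -0.10, 0.18 and 0.16, and those of different-numbered arrays by -0.35 to 0.27. These values do not decide whether the arrays are pairs, and the main fit used no pairing. With the replicate number as a block, Tnfrsf11b had a limma adjusted p of 0.0271, Eda2r of 0.148 and Ptgs2 of 0.0400. Signals near background limit what can be said of the 20 undetected genes; without the filter on dim probes, limma called 0 of them.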

Other observations

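The fourth probe of Fas, which did not pass the detection filter, had a signal above background in 3 CD9high and 0 CD9low replicates, while the 3 tested probes of this death receptor gene were above background on all 8. Its levels were 5.66, 5.96, 4.38 and 4.72 in CD9high and 4.36, 4.27, 4.34 and 4.31 in CD9low. These do not overlap, but CD9high replicate 3 (4.38) and CD9low replicate 1 (4.36) nearly touch. Over all genes tested 7.69% did not overlap. Because not every CD9high array was above background, no bound on the fold is given. The other probes differed by 0.18, -0.10 and 0.05, and the transcript that each probe reads is not annotated in the sources used here. The probe was singled out after its values were seen.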
